A study of Mus musculus with 104 samples.

Results

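The 9 genes followed here across the cortex libraries of 52 female and 52 male mice mark excitatory neurons of the upper cortical layers, layers 2 to 4: Cux1, Cux2, Rasgrf2, Otof, Rorb, Rspo1, Calb1, Lhx2 and Pou3f2. They were taken by name, and all 9 were found among the 24060 genes of the RefSeq count table. All 9 were also among the 15723 genes with enough reads for testing. The mice were wild type C57BL/6 animals aged 6 months, with no allele or agent named in the labels for any group. They came from 13 lines, each with 4 females and 4 males, and the line names are those of genes. These were Tbc1d8, Gsg1l, Rgs9, Arpp19, Hrk, Zswim6, Pcdh20, Ppp1ca, Dach1, Rasgef1a, Kdm3b, Ece2 and Morf4l1. The labels carry the line under a batch tag, so line and batch cannot be told apart. Kinship between the mice is not given, and the tests treat each mouse as independent.

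The neocortex is built in layers, and its excitatory neurons differ by layer in their connections and in the genes they use. Neurons of layers 2 and 3 mostly send axons to other cortical sites, layer 4 receives much of the input from the thalamus, and layers 5 and 6 project out of the cortex. The thickness of each layer differs between cortical areas, and many layer markers also form gradients across the cortical sheet. Cux1 and Cux2 are cut homeodomain transcription factors of layers 2 to 4. Pou3f2 (also called Brn2) is a POU domain factor and Lhx2 a LIM homeodomain factor, both with roles in cortical development. Rorb is a nuclear receptor best known from layer 4. Rasgrf2 is an exchange factor that activates Ras family proteins. Otof codes for otoferlin, a calcium sensor of vesicle release known best from the inner ear. Calb1 codes for the calcium buffer calbindin, which some interneurons also make. Rspo1 codes for a secreted protein that strengthens Wnt signals.

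In GENCODE vM21 on GRCm38, all 9 are protein-coding genes. Cux1 (ENSMUSG00000029705) lies at chr5:136248135-136567490, Cux2 (ENSMUSG00000042589) at chr5:121856366-122050102 and Otof (ENSMUSG00000062372) at chr5:30367062-30461932, all on the minus strand. Rasgrf2 (ENSMUSG00000021708) lies at chr13:91880400-92131656, Rorb (ENSMUSG00000036192) at chr19:18930605-19111196 and Pou3f2 (ENSMUSG00000095139) at chr4:22482780-22488366, on the minus strand too. On the plus strand are Rspo1 (ENSMUSG00000028871) at chr4:124986430-125009099, Calb1 (ENSMUSG00000028222) at chr4:15881264-15908064 and Lhx2 (ENSMUSG00000000247) at chr2:38339281-38369733. Annotated antisense genes overlap Cux1, Cux2, Rspo1 and Lhx2, and the strand setting of the counting is not given in the sources used here, so their counts may include antisense reads.

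RefSeq start sites on GRCm38.p6 were matched by symbol for 7 of the 9 members, with 10 windows of 250 bases before a start. Of these windows, 4 are shown because their genes stand for the patterns described further on: Rasgrf2 and Lhx2 rose and fell together over libraries, Rorb followed Cux1, and Rspo1 ran against Otof and Rasgrf2. Sequences are given from 5′ to 3′ on the strand of the gene.
Rasgrf2, chr13:92131829-92132078, minus strand: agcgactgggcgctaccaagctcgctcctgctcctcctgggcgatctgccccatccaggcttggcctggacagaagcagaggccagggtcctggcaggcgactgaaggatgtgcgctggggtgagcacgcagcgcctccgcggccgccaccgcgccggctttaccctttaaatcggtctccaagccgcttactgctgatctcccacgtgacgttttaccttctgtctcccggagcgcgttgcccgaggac
Lhx2, chr2:38339031-38339280, plus strand: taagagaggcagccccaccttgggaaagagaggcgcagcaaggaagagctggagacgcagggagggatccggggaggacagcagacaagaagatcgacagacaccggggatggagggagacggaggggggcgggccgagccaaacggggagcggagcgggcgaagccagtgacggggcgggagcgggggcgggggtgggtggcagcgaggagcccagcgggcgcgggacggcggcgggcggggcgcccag
Rorb, chr19:19111197-19111446, minus strand: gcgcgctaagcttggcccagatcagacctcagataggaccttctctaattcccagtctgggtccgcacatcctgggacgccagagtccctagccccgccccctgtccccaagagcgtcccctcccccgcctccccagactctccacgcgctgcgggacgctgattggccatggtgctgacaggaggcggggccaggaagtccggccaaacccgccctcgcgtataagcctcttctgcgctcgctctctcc
Rspo1, chr4:124986180-124986429, plus strand: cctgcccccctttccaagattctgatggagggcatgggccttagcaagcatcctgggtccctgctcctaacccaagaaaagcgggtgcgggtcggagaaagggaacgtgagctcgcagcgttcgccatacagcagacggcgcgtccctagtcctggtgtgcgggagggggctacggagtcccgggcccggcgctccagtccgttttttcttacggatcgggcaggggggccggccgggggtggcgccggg
A set of 4 short motifs was searched on both strands, and no motif contains another. AGGTCA is the core site of retinoid-related orphan receptors such as the Rorb product, and it occurred in 14% of the 32851 RefSeq windows of the same length. ATGCAAA is part of the octamer read by POU factors and occurred in 4.12% of all windows. TAATTA is a core read by LIM homeodomain factors, found in 4.84%. For cut homeodomain factors the core ATCGAT was used, found in 0.728%. None occurs in the 4 windows shown. Over all 10 windows the only match was that of the cut homeodomain core, found once, upstream of the second start site of Cux2.

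Sequencing depth was even apart from one library. Totals over the counted genes ran from 23.93 to 33.49 M reads in all libraries but one, with a median of 28.38 M, and Kdm3b female replicate 22 held 3.39 M. In this library the members read 188 CPM (counts scaled to library size) for Cux1, 326.7 for Rasgrf2 and 26.6 for Otof, inside the ranges of the other libraries. Reads of Xist and of Y genes went against the sex label in 3 libraries, namely Rasgef1a female replicate 39, Rasgef1a male replicate 40 and Rgs9 female replicate 43. The tissue label was checked against marker genes: Slc17a7, the vesicular glutamate transporter of cortical excitatory neurons, stood at 427 to 539 FPKM (fragments scaled by gene length and sequencing depth), and Tbr1, a deep layer transcription factor, at 38.1 to 49.9. Markers of neighbouring regions were low, with Drd2 (striatum) at 0.147 to 0.72 FPKM, Lct (hippocampus) at 0.104 to 0.364 and Tcf7l2 (thalamus) at 0.63 to 1.23. Choroid plexus genes were uneven: Ttr had a median of 0.261 FPKM but reached 231 in its highest library, a male, and Kl reached 2.6 beside a median of 0.345. These are bulk libraries, so fewer cells of a type and less RNA per cell cannot be told apart in any result given here.

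On the length-corrected FPKM scale, the 9 members fell into an order that most libraries shared. Rasgrf2 was the highest, at a lowest, median and highest FPKM of 41.8, 53.7 and 70.1 over all libraries. Calb1 followed with 29.6, 38.9 and 57.7, and Cux2 with 28.7, 34.9 and 43.3. Rasgrf2 lay above Calb1 in every library, whereas the ranges of Calb1 and Cux2 overlapped and Calb1 was the higher in 86 of them. Lhx2 came next with FPKM of 15.4, 21.6 and 26.6, below Cux2 in every library. Rspo1 stood at 10.9, 16 and 20. Cux1 stood at 11.4, 13.2 and 15.7, although it has the longest model of the 9. Neighbours in this middle range overlapped: Lhx2 lay above Rspo1 in 102 libraries, Rspo1 above Cux1 in 94 and Cux1 above Rorb in 99. Rorb had FPKM of 9.51, 11.7 and 14.6 and Pou3f2 of 8.6, 10.3 and 11.6, with Rorb the higher in 92 libraries. Otof was the lowest member at 2.54, 3.96 and 8.83 FPKM, under Pou3f2 in 103 libraries. The mean FPKM of Otof was 4.29 ± 1.34 (SD over all libraries) and that of Rasgrf2 53.3 ± 4.61.

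**Figure D1:**
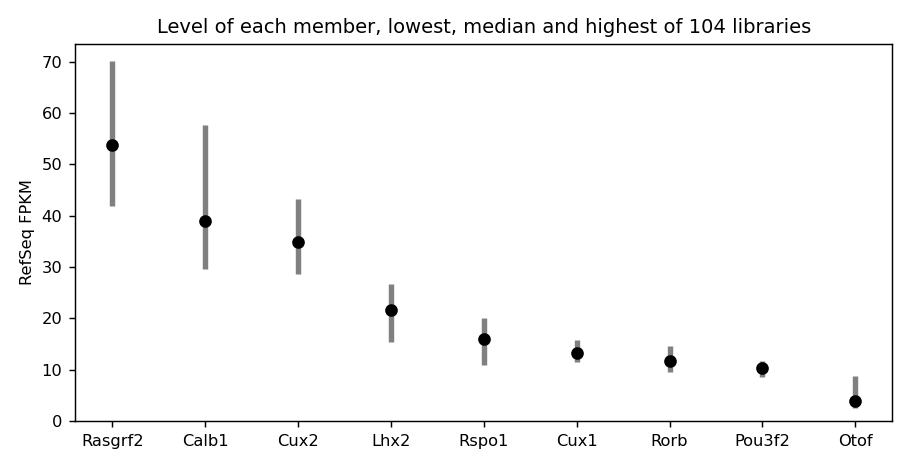
Level of the 9 members in RefSeq FPKM (vertical axis, linear, from 0). Each grey bar runs from the lowest to the highest library and each dot is the median; Rasgrf2 (median 53.7) has the highest median, its range overlaps that of Calb1, and Otof (median 3.96) is the lowest.

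Otof varied far more between mice than the other 8 members did. Its CPM ran from 18.2 through a median of 28.3 to 63.0, and the SD of its log2 CPM over all libraries was 0.42. The same SD was 0.09 for Pou3f2, 0.11 for Cux1, 0.12 for both Cux2 and Rasgrf2, 0.13 for Rorb, 0.14 for Lhx2, 0.15 for Calb1 and 0.17 for Rspo1. The median SD of all tested genes was 0.12, so Pou3f2, Cux1 and Cux2 were on the steadier side of the median gene and Otof was at the 88.9th percentile. Genes with few reads vary more, and edgeR's biological coefficient of variation (BCV, the spread left once line, sex and counting error are taken into account) corrects for this by its trend over expression. The BCV of Otof was 26%, which is 3.75 times the 6.94% of the trend at its level, and 0.35% of tested genes had a ratio as high. The next highest ratio of BCV to trend was that of Calb1, at 1.59, and the lowest that of Pou3f2, at 0.93. In all, 8 of 9 members lay above the trend, as did 32.2% of all tested genes, and the median ratio was 1.46 for the members and 0.82 for all tested genes. Most of this spread lay within lines: the line took 25.5% of the variance of Otof, 19% of that of Cux2 and 7.7% of that of Lhx2, and 14.1% for the median gene.

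A few libraries stood at the end of the range for several members at once. Dach1 female replicate 5, Gsg1l female replicate 13 and Pcdh20 male replicate 30 were each among the 10 highest for 5 members. Gsg1l female replicate 13, for example, read 57.5 CPM for Otof, 218.5 for Cux2, 338.2 for Rasgrf2, 136.4 for Rorb and 141.1 for Calb1. Rgs9 female replicate 44 was split: it had the highest Otof of all, 63.0 CPM, and was among the 10 highest for Calb1 (134.4) and Lhx2 (73.1), while it had the lowest Rspo1 (20) and Pou3f2 (53.7) and was among the 10 lowest for Cux1 (178.7) and Rorb (92.6). Rasgef1a female replicate 39, one of the 3 libraries against their sex label, was among the 10 lowest for 5 members. High values thus did not run through all 9 members together. For depth, r was between -0.15 (Rspo1) and 0.14 (Cux2) for log2 CPM against the log2 total over all libraries.

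Between lines, Otof was the member that differed. In the 8 Tbc1d8 libraries the Otof values were 31.7, 34.7, 39.2, 40.1, 43.3, 45.4, 48 and 51.6 CPM. The 96 libraries of the other 12 lines ran from 18.2 through 27 to 63.0 CPM. All Tbc1d8 libraries thus lay above the median of the others, and both ranges overlapped. The Otof mean was 41.8 ± 6.66 CPM (SD, n = 8) in Tbc1d8 and 38.7 ± 10.7 in Gsg1l, the next line. Then came Rgs9 with 34.1 ± 14.1 CPM, Arpp19 with 33.1 ± 5.16 and Hrk with 30.54 ± 10.51. The middle of the order was Zswim6 at 29.8 ± 12.1 CPM, Pcdh20 at 29.4 ± 6.14, Ppp1ca at 28.2 ± 6.86, Dach1 at 28.2 ± 9.11 and Rasgef1a at 27.8 ± 9.93. Kdm3b at 26.6 ± 3.75 CPM, Ece2 at 26.1 ± 4.45 and Morf4l1 at 25.7 ± 7.90 had the least. No step between neighbours in this order exceeded 1 SD, and the largest, as a share of the larger SD, was 0.32.

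The edgeR quasi-likelihood F-test across the 13 lines called 1 of 9 members at a Benjamini-Hochberg adjusted p under 0.05, beside 9.61% of all tested genes. This was Otof, with an adjusted p of 0.0439. The others had an adjusted p between 0.19 (Cux2) and 0.868 (Lhx2) by this edgeR test. The Otof call was a narrow one: among single libraries of Tbc1d8 it ended without female replicate 45 (adjusted p 0.0752 by edgeR), 46 (0.0575), 47 (0.0603) or 48 (0.0694), or male replicate 45 (0.0828) or 47 (0.0976). Among those of Gsg1l it ended without female replicate 13 (edgeR adjusted p 0.0883) or 16 (0.0747), or male replicate 14 (0.0521), 15 (0.0602) or 16 (0.0606) (libraries of the other 11 lines were not each left out). It also ended without the whole line Tbc1d8 (edgeR adjusted p 0.402), Gsg1l (0.147), Kdm3b (0.0751), Ece2 (0.0737) or Morf4l1 (0.0627), and within plate 1 (0.12). The same held with scores of other tissues as covariates (edgeR adjusted p 0.338), in females only (0.462) and in males only (0.516). Without the 3 libraries against their sex label Otof had an edgeR adjusted p of 0.0179.

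Each line was then set against the mean of the other 12 in the same edgeR fit, giving 117 contrasts of a member in a line, and 1 was called. It was Otof in Tbc1d8, higher by 0.49 ± 0.13 (log2, SE; edgeR adjusted p 0.0064), where 12.4% of all tested genes were called and 5.66% were called higher. The difference was 0.44 to 0.54 with each Tbc1d8 library left out (edgeR adjusted p 0.00471 to 0.0332), and 0.45 among plate 1 libraries alone (0.0398). With tissue scores as covariates (summary levels of oligodendrocyte, erythroid, striatum and choroid plexus genes) it was 0.29, and edgeR's adjusted p was 0.108. The erythroid score rests on 1 tested gene, Alas2, at a median of 0.44 FPKM, so it is a poor measure of blood. The choroid plexus score holds the extreme Ttr value given above. The females alone gave 0.52 and the males alone 0.48, and neither passed edgeR's adjusted threshold (0.13 and 0.125). In Gsg1l, where 10.4% of all tested genes were called and 4.86% were called higher, Otof was higher by 0.37 ± 0.13 (log2, SE), Calb1 by 0.12 ± 0.05 and Cux2 by 0.10 ± 0.04, with edgeR adjusted p of 0.06, 0.0992 and 0.0994. With the tissue scores as covariates the Otof difference in Gsg1l was 0.17 (edgeR adjusted p 0.395). It was 0.26 to 0.43 with each Gsg1l library left out, and passed by edgeR without female replicate 14 (adjusted p 0.0311) or 15 (0.0462) or male replicate 13 (0.0449), and also without Zswim6 female replicate 50 (0.0346). Few genes passed in the remaining 11 lines: 0.165% in Dach1, 0.108% in Rasgef1a, 0.0445% in Rgs9, 0.0318% in Morf4l1, 0.0127% in Ece2 and in Pcdh20, 0.00636% in Arpp19, and 0% in Hrk, Kdm3b, Ppp1ca and Zswim6. No member was called in those lines; at an unadjusted p under 0.05 the edgeR counts were 3 in Morf4l1, 3 in Rgs9, 1 in Ece2, 1 in Rasgef1a and 0 in each of the rest.

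The other 8 members spanned narrow ranges between lines. For Rspo1 the highest line mean was 31.3 ± 3.10 CPM (SD, n = 8) in Morf4l1 and the lowest 25.7 ± 3.94 in Rgs9, a ratio of 1.22. For Calb1 the means ran from 122.2 ± 12.2 CPM in Gsg1l to 105.7 ± 9.96 in Ece2, and for Cux2 from 192.4 ± 21 in Gsg1l to 172.3 ± 11.2 in Ppp1ca. The ratio of highest to lowest line was 1.16 for Calb1, 1.13 for Rorb, 1.12 for Cux2, 1.11 for Cux1, 1.10 for Rasgrf2 and 1.09 for both Lhx2 and Pou3f2, against 1.62 for Otof. Without Otof, the contrasts of the other 8 members in a line lay between -0.19 and 0.12 on the log2 scale. In none of the 9 members did any of the 12 steps between neighbouring lines exceed 1 SD.

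**Figure D2:**
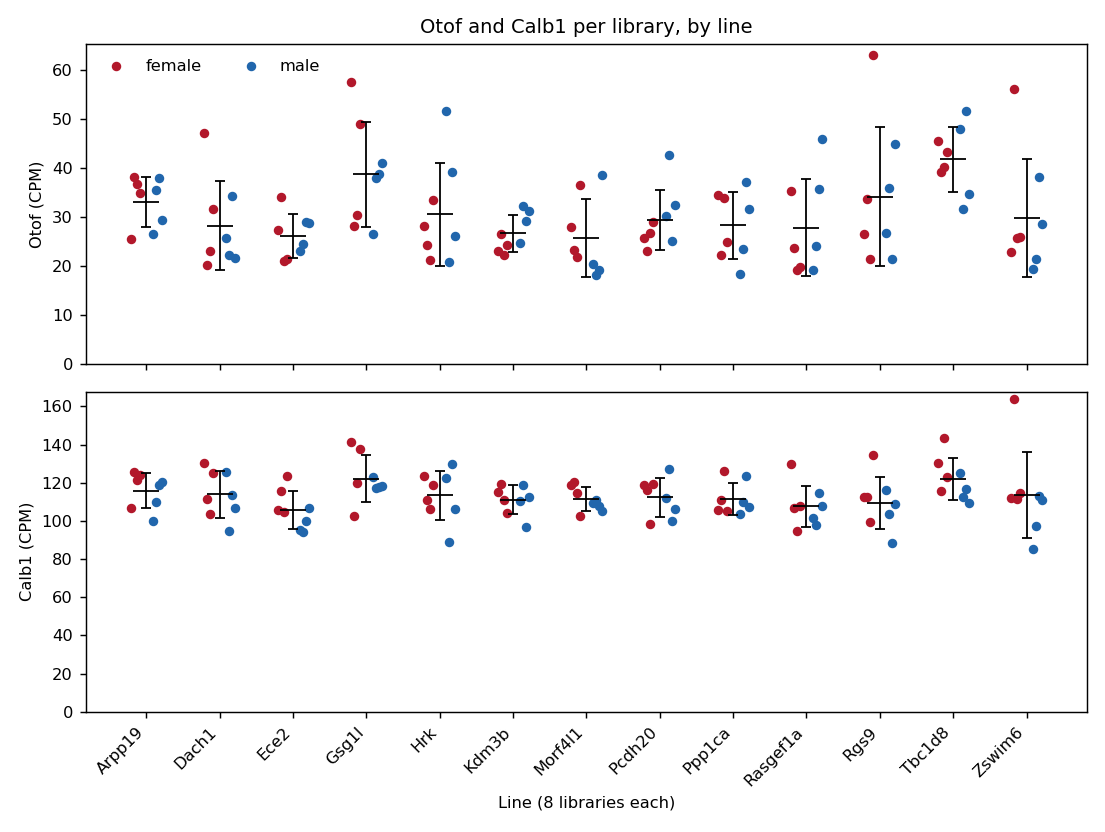
Otof (top) and Calb1 (bottom) in CPM for each library, by line on the horizontal axis; red points are females, blue points are males, and the black bar and whiskers are the line's mean and SD (n = 8). The 8 Tbc1d8 libraries lie between 31.7 and 51.6 CPM for Otof, and Calb1 shows a higher female mean in every line, with 1 Zswim6 female at 163.7.

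Other upper layer genes were read from a list of 17 that shares no gene with the 9. In Tbc1d8, 7 of these 17 were called by edgeR, 3 higher and 4 lower, where 12.4% of all tested genes were called. Their median log2 difference was 0.07, beside 0.01 over all tested genes. Matn2, an extracellular matrix protein, was higher by 0.42 ± 0.06 (log2, SE; edgeR adjusted p 1.14e-08), and Syt17, a synaptotagmin, by 0.24 ± 0.06 (0.00433). Of 16 deep layer genes, 1 was called in Tbc1d8, to be read against the same 12.4%. The guidance cue Sema3e was lower, with a log2 difference of -0.22 ± 0.08 (edgeR adjusted p 0.0452). It was lower in Gsg1l too, at -0.245 ± 0.077 (edgeR adjusted p 0.0249). Upper layer genes therefore went both ways in Tbc1d8. The summed CPM of 10 oligodendrocyte genes ran from 1860 through 2030 to 2260 in Tbc1d8 and from 1470 through 2210 to 2690 in the other lines. That of 12 immediate early genes ran from 1650 through 2340 to 3230 in Tbc1d8 and from 857 through 2120 to 3260 in the others, and the part of these lists in the Otof difference was not tested beyond the fit with tissue scores.

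Calb1 differed slightly between the sexes, and the other members did not pass the test. The lowest, median and highest Calb1 were 94.7, 115.3 and 163.7 CPM in the 52 females, and 85.3, 109.6 and 129.7 in the 52 males. The ranges overlapped widely, and the means were 116.9 ± 12.7 (SD, n = 52) and 109.2 ± 10.4. Calb1 was higher in females by 0.10 ± 0.03 (log2, SE; edgeR adjusted p 0.0129), and the female mean was the higher in 13 of 13 lines, by 0.01 in Ppp1ca up to 0.29 in Zswim6. It was the 1 member of 9 called, beside 8.57% of all tested genes; 4.07% of all tested genes were called higher in females. Without the 3 libraries against their sex label the difference was 0.11 (edgeR adjusted p 0.00516), without Zswim6 female replicate 50 it was 0.08 (0.0194), and with the tissue scores as covariates it was 0.14 (4.95e-07).

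Rspo1 stood at 20, 30.3 and 36.8 CPM (lowest, median and highest) in females and at 21.9, 27.6 and 36 in males. It was higher in females by 0.09 ± 0.03 (log2, SE), with the female mean higher in 10 of 13 lines, but edgeR's adjusted p was 0.0594. DESeq2 gave Rspo1 an adjusted p of 0.0482 and limma on log2(FPKM + 1) one of 0.046, so this gene sat at the threshold. The remaining 7 members had log2 differences between -0.03 (Cux1 and Lhx2) and 0.03 (Rorb), and Otof differed by -0.01 ± 0.08. Of the 16 deep layer genes, 1 was called: Etv1, a transcription factor of layer 5, was higher in females by 0.10 ± 0.03 (edgeR adjusted p 0.0228). Of the 17 other upper layer genes, Matn2 was lower in females, at -0.16 ± 0.03 (edgeR adjusted p 0.000215), and was the 1 called.

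Genes of other marker lists also differed by sex, to be read against the 8.57% of all tested genes called. Of 12 immediate early genes, 4 were called, all lower in females (Npas4, Junb, Nr4a1 and Fos), and the list's median log2 difference was -0.22 beside 0 over all tested genes. Their summed CPM ran from 857 through 1990 to 3230 in females and from 999 through 2320 to 3260 in males. Of 6 oligodendrocyte precursor genes, 3 were called, all higher in females: Gpr17 by 0.18 ± 0.03 (log2, SE; edgeR adjusted p 2.53e-05), Vcan and Cacng4. That list's summed CPM ran from 247 through 269 to 295 in females and from 201 through 260 to 294 in males. Of 10 oligodendrocyte genes, Mog and Cldn11 were called, both higher in females by 0.10 ± 0.03 (log2, SE; edgeR adjusted p 0.0345 and 0.0409). The summed CPM of the oligodendrocyte list ran from 1470 through 2260 to 2690 in females and from 1750 through 2150 to 2620 in males. Of 10 microglial genes, Fcrls was called higher and Ctss lower, and the summed list ran from 388 through 436 to 489 CPM in females and 398 through 433 to 498 in males. All genes of these 4 lists were detected. Of 12 interneuron genes, Htr3a and Calb2 were called, lower in females by 0.18 ± 0.03 and 0.11 ± 0.04 (log2, SE; edgeR adjusted p 0.000189 and 0.0466). Slc17a7 and the neuronal gene Rbfox3 were called lower too. Of 12 tested striatum genes 2 were called, both lower, and of 12 cortical area genes 3, of which 2 were higher. The part of all these lists in the Calb1 difference was not tested beyond the fit with tissue scores, given above. A sex difference that varied by line was not detected in any member: the interaction test in edgeR called 0 of 9 members, beside 0.0382% of all tested genes, with 0 members at an unadjusted p under 0.05 and 0 called by DESeq2 or limma.

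The labels also give a plate for each library, and plate was tested with line and sex as terms. The 8 plate 2 libraries came from 6 lines, and their Otof values were 27.9, 29.3, 34.2, 47.1, 48, 49, 51.6 and 63.0 CPM. The last 5 of these lie in the upper part of the range of all libraries. Otof was higher on plate 2 by 0.48 ± 0.14 (log2, SE), at an edgeR adjusted p of 0.0881. Lhx2 differed by 0.15 ± 0.05, Calb1 by 0.13 ± 0.05 and Cux2 by 0.10 ± 0.04. No member was called by edgeR, beside 0.242% of all tested genes; 4 had an unadjusted p under 0.05, and DESeq2 and limma called 0. With the tissue scores as covariates the Otof difference was 0.26 (edgeR adjusted p 0.685).

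Over all libraries, the members fell into groups that rose and fell together. Pearson's r and Spearman's rho were computed for the 36 pairs from log2 CPM, with two-sided permutation p (100000 draws) adjusted over the 36. By Pearson's r 21 pairs passed, 18 of them positive and 3 negative, and by Spearman's rho 18 passed. The median r was 0.20, beside 0 over all pairs of tested genes, and 7 of 36 pairs (19.4%) reached an r of 0.5, as did 0.7% of all pairs. Mean log2 CPM was 4.86 (Rspo1) to 8.28 (Rasgrf2) for the members and 4.28 for the median tested gene. The background pairs were not matched to the members for level or spread. The points of each pair share a library and its scaling.

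One set was Otof, Calb1, Rasgrf2, Lhx2 and Cux2. Otof and Calb1 gave r = 0.64 (rho 0.58), Rasgrf2 and Calb1 0.61 (0.55), Cux2 and Lhx2 0.55 (0.55), Rasgrf2 and Otof 0.54 (0.53), Otof and Lhx2 0.51 (0.55), and Calb1 and Lhx2 0.50 (0.53). Each of these had a permutation p of 1e-05, the smallest the draws allow, and an adjusted p of 4.5e-05. The weakest pair inside the set was Cux2 and Calb1, at r = 0.28 (adjusted permutation p 0.00931), so all 10 pairs among these 5 genes passed. In residuals of a fit with line and sex, Rasgrf2 with Calb1 reached 0.73 and with Otof 0.67. These pairs were thus at least as closely related once the means of line and sex were removed. When the 2 libraries farthest from the median of the first gene were left out, r was 0.60 for Otof and Calb1, 0.54 for Rasgrf2 and Calb1, and 0.49 for Rasgrf2 and Otof. Within plate 1 the same pairs gave 0.60, 0.62 and 0.56, while Cux2 with Calb1 fell to 0.22 and no longer passed; plate 2 holds 8 libraries, too few per line for its own value.

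**Figure D3:**
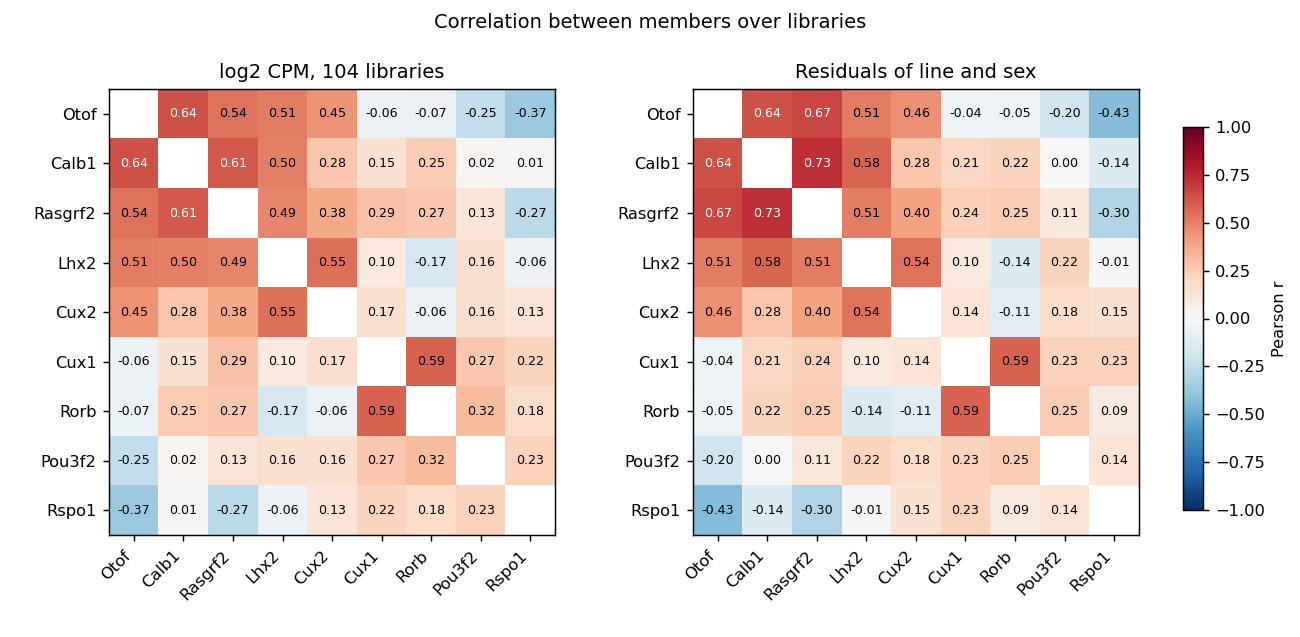
Pearson's r between the 9 members over all libraries, from log2 CPM (left) and from residuals of a fit with line and sex (right); red is positive, blue negative, and each cell prints its r. Otof, Calb1, Rasgrf2, Lhx2 and Cux2 form a positive block, Cux1 and Rorb pair at 0.59, and Rspo1 is negative with Otof in both panels (-0.37 and -0.43).

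Cux1 and Rorb formed a second set, not fully apart from the first, since Rorb with Calb1 also passed (r = 0.25). Not every passing pair is named here. Their r was 0.59 (rho 0.57; adjusted permutation p 4.5e-05), 0.59 in residuals of line and sex, 0.55 without the 2 extreme libraries and 0.58 within plate 1. Neither gene followed Otof, with r of -0.06 for Cux1 and -0.07 for Rorb. Although they are paralogs, Cux1 and Cux2 had an r of 0.17 (adjusted permutation p 0.12). Pou3f2 followed Rorb weakly, at 0.32 (0.00297), and its other passing pairs were those with Cux1 (0.27), Otof (-0.25) and Rspo1 (0.23). Without the 2 libraries farthest from the median these gave 0.20, -0.20 and 0.10, and none passed. Cux1 with Rspo1 went from 0.22 to 0.19 and Rorb with Calb1 from 0.25 to 0.21 in the same way, and neither passed then. Of these 5 pairs, Pou3f2 with Rspo1 had the largest change in r, and the other 4 lay near the threshold.

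Rspo1 ran against part of the first set. Its r was -0.37 with Otof (rho -0.33; adjusted permutation p 0.000425) and -0.27 with Rasgrf2 (rho -0.23; 0.0111), but 0.01 with Calb1. In residuals of line and sex the Otof and Rspo1 value was -0.43, within plate 1 it was -0.41, and without the 2 extreme libraries it was -0.33. The 9 upper layer markers therefore did not vary as one unit over these libraries.

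**Figure D4:**
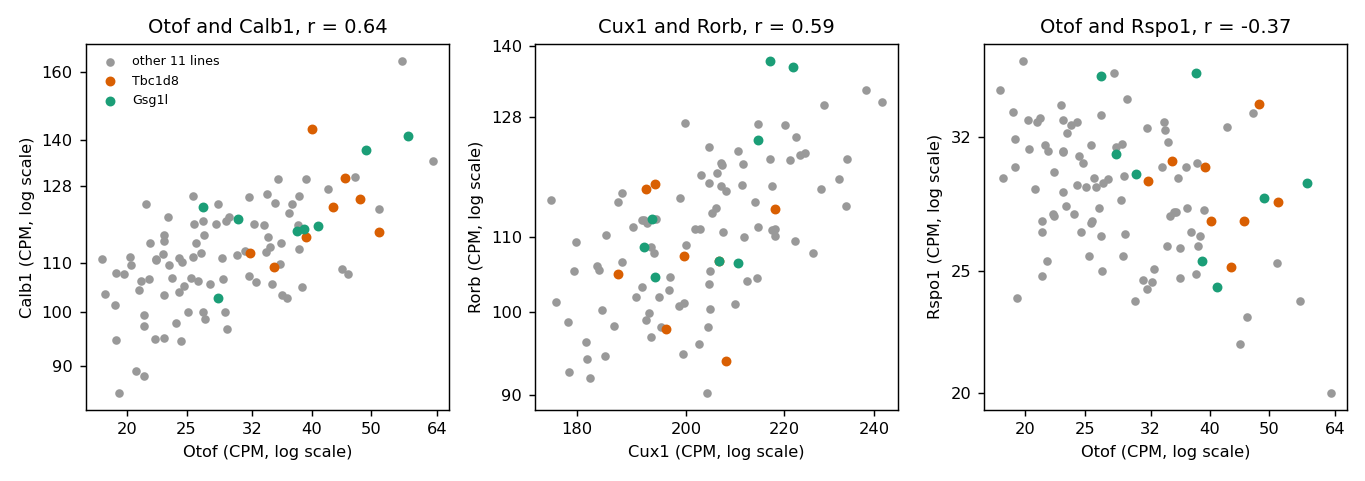
Pairs of members in CPM on log axes, 1 point per library, with Tbc1d8 in orange, Gsg1l in green and the other 11 lines in grey. Otof and Calb1 rise together (r = 0.64), Cux1 and Rorb rise together (r = 0.59), and Rspo1 falls as Otof rises (r = -0.37), with the points of all lines mixed.

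Each member was also set against the mean log2 CPM of 19 other marker lists, 171 relations in all, with permutation p adjusted over the 171. Of these, 52 passed by Pearson's r (33 positive, 19 negative) and 57 by Spearman's rho. How often other tested genes pass with these lists was not computed. The counts of relations that passed thus have no background. The strongest were negative relations with oligodendrocyte genes: r was -0.61 for Lhx2 (rho -0.65), -0.56 for Otof (-0.55) and Calb1 (-0.49), -0.48 for Rasgrf2 (-0.48) and -0.40 for Cux2 (-0.40), each with an adjusted permutation p of 0.000233 or less. For Otof, Calb1, Lhx2 and Cux2 all 10 oligodendrocyte genes had a negative r, and for Rasgrf2 8 of 10 did. Cux1 (-0.18), Rorb (-0.04), Pou3f2 (-0.11) and Rspo1 (0.02) showed no relation that passed. Libraries with more myelin RNA thus had less of the same 5 members that rose and fell together.

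The deep layer list, with markers of layers 5 and 6, had a negative relation that passed by Pearson's r with 6 of the 9 members. Its r was -0.54 for Calb1 (rho -0.48), -0.45 for Rasgrf2 (-0.44), -0.41 for Rspo1 (-0.47), -0.34 for Cux2 (-0.31) and -0.31 for Lhx2 (-0.36), with adjusted permutation p of 0.00668 or less. For Cux1 it was -0.25 (-0.26; adjusted permutation p 0.0339), and -0.22, which did not pass, without the 2 libraries farthest from the median. For Otof (-0.20), Rorb (-0.22) and Pou3f2 (-0.08) the relation did not pass by Pearson's r. That of Rorb passed by Spearman's rho (-0.24, adjusted permutation p 0.0405). Single deep layer genes differed: Calb1 had an r of -0.67 with both Bcl11b (the layer 5 factor Ctip2) and Syt6, and -0.66 with Sema3e. Otof had -0.70 with Sema3e and -0.68 with Pcp4, but 0.56 with Colgalt2. Rspo1 had its lowest r with Rprm, -0.66, and -0.48 with the layer 6 receptor gene Ntsr1. Cux1 and Rorb had theirs with Fezf2, the factor that specifies subcortical projection neurons, at -0.49 and -0.60.

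The other upper layer list rose with Calb1 (r = 0.53), Otof (0.52), Lhx2 (0.51) and Cux2 (0.44), each with an adjusted permutation p of 0.000114, and had r of 0.13 with Rspo1 and -0.20 with Rorb. Its genes split as the members did. Wfs1, a membrane protein of the endoplasmic reticulum, and the semaphorin receptor Plxnd1 followed Otof at 0.85 and 0.71. Lamp5 ran against Otof at -0.55 and followed Rspo1 at 0.64. Pvrl3 (nectin 3) followed Calb1 at 0.64 and Rorb at 0.54, and Scnn1a, a layer 4 marker, had 0.46 with Rspo1, 0.32 with Rorb and -0.41 with Otof.

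Genes that form gradients across cortical areas gave r of 0.45 with Rasgrf2, 0.41 with Otof and 0.36 with Calb1, but -0.39 with Rspo1, and all 4 passed. Within that list Otof had 0.79 with the protocadherin gene Pcdh8, 0.73 with Bhlhe22 and 0.68 with the nuclear receptor Nr2f2, and -0.61 with Lmo3. Calb1 had 0.78 with Bhlhe22 and 0.54 with Nr2f1, whereas Rspo1 had -0.47 with Crym and -0.42 with Nr2f2. The 3 tested genes of the claustrum and insula list, Nr4a2, Gnb4 and Ntng2, gave 0.53 with Otof (rho 0.53) and -0.51 with Rspo1 (-0.47). Gnb4 alone had 0.54 with Otof and -0.56 with Rspo1. Markers of the striatum, which lies under the cortex, passed with 1 member, Cux1 at -0.29, and those of the hippocampus and choroid plexus with 0 of 9. The choroid plexus score holds the extreme Ttr value given above, so its r can lean on that library. The thalamus list passed with Rspo1, at 0.31.

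Microglial genes rose with Calb1 (r = 0.59, rho 0.63), Otof (0.47, 0.45), Lhx2 (0.36, 0.44) and Rasgrf2 (0.28, 0.27), and all 10 genes had a positive r with each of these 4 members. Immediate early genes, which neurons switch on with activity, gave 0.42 with Otof and 0.35 with Rasgrf2. A list of excitatory neuron genes that also holds the general neuronal genes Snap25 and Rbfox3 gave -0.41 with Rasgrf2 and -0.40 with Rorb. The same list gave 0.30 with Lhx2 and 0.29 with Rspo1. In residuals of line, sex and the 4 tissue scores, Calb1 with microglia was 0.56, Otof with claustrum and insula 0.53 and Rasgrf2 with cortical area 0.49. In the same residuals, Calb1 with the other upper layer list fell to 0.17 and Lhx2 with deep layers to -0.07, and neither passed. The part of dissection, area or cell makeup in these relations was not tested further.

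**Figure D5:**
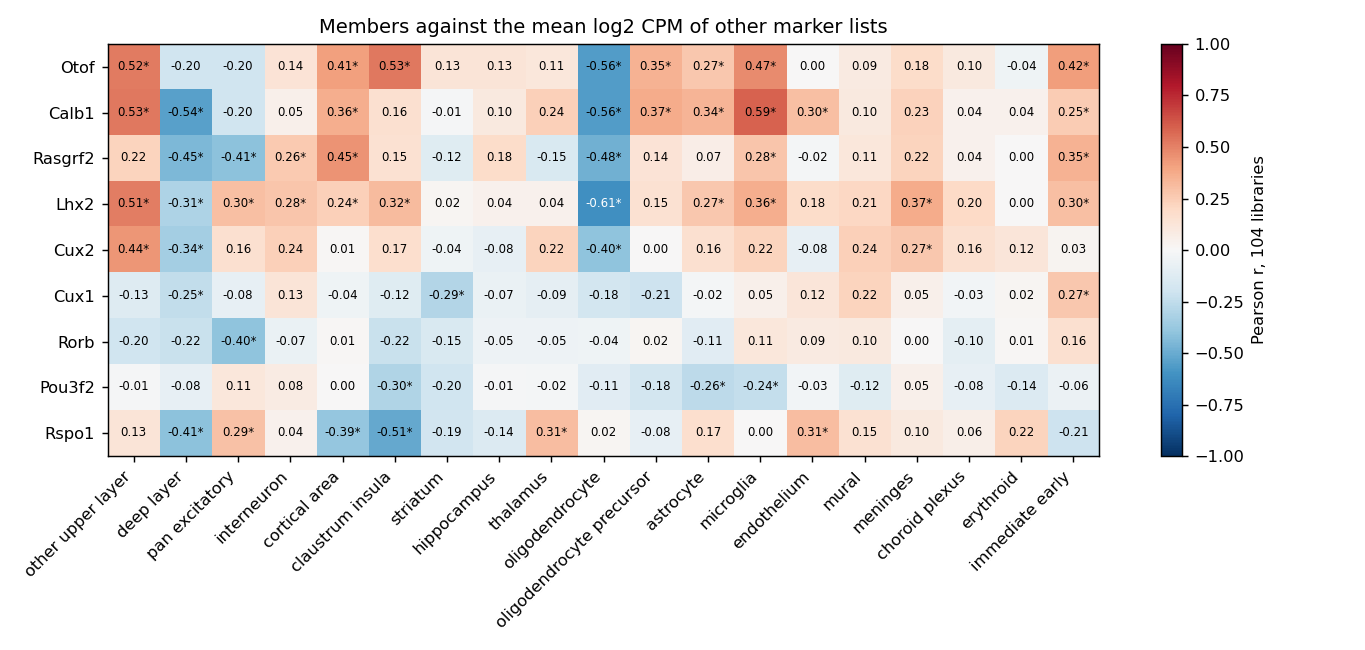
Pearson's r of each member (rows) with the mean log2 CPM of 19 marker lists (columns) over all libraries; red is positive, blue negative, and an asterisk marks an adjusted permutation p under 0.05. Otof, Calb1, Rasgrf2, Lhx2 and Cux2 are negative with oligodendrocyte genes (-0.40 to -0.61), and Otof (0.53) and Rspo1 (-0.51) have opposite signs with claustrum and insula genes.

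The genes most like each member were sought among 12826 tested genes whose mean log2 CPM reached 1, by Pearson's r over all libraries. Otof was closest to Hap1 (0.85), Wfs1 (0.85) and Necab2 (0.84). Among the genes closest to Calb1 were Myh7 (0.79) and Bhlhe22 (0.78), and Rasgrf2 was closest to Nsg2 (0.78), Rragd (0.78) and Gucy1a3 (0.75). The closest genes to Lhx2 were Apoe, Neurl1a and Ppp1r9b, all at 0.70. Cux2 was nearest to B4galt2 (0.70), Ajap1 (0.65) and Kcnh3 (0.64). Cux1 and Rorb shared Tmtc1 (0.68 and 0.65) among their 3 closest, with Arhgap42 (0.66) and Sun1 (0.65) for Cux1 and Boc (0.71) and Drp2 (0.66) for Rorb. Rspo1 was nearest to Hr (0.66), Lamp5 (0.64) and Sema7a (0.62). Pou3f2 had no close neighbour: its highest values were Nr3c1 (0.52), Tmem215 (0.50) and Sema3c (0.48). Averaged over the 9 members, the highest mean r was that of Plxnd1 (0.40), then Cyp46a1 (0.36), Neurod1 (0.35), Fam19a2 (0.35) and B4galt2 (0.34). Of these 5, Cyp46a1, an enzyme of brain cholesterol turnover, had a positive r with all 9 members, and the other 4 had a negative r with Rspo1.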

How the data were processed

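RNA of the cerebral cortex of 52 female and 52 male wild type mice was sequenced from stranded TruSeq libraries, per the labels' protocols. HTSeq 0.10.0, STAR 2.7.3a and the genome builds mm10 and GRCm38 stand in the submitters' processing notes; the counting mode and strand setting are not given in the sources used here. The deposited RefSeq and Ensembl files hold whole-number read counts per gene. The deposited RefSeq FPKM values are counts scaled by the authors by gene length and depth. The Ensembl count file ended inside a line, and Pou3f2 was not read from it.

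Members and lists were chosen with earlier results of these data known. RefSeq counts were tested with edgeR 4.0.16 in R 4.3.3 (limma 3.58.1, DESeq2 1.42.0): filterByExpr by line and sex, TMM, glmQLFit and glmQLFTest, with Benjamini-Hochberg adjustment over the 15723 tested genes and a threshold of 0.05. SE is the log2 difference over the square root of F. CPM are TMM-scaled; log2 CPM have a prior count of 2. Correlations used numpy and scipy in Python with 100000 permutations. Named genes were the 9 members, up to 3 genes per other list by smallest p (for correlations, largest r in size), the 3 genes closest to each member and the 5 with the highest mean r; deep layer, upper layer and area genes beyond these were named after their values were seen. Some genes that the rule names are not reported here. The fit was tested on simulated counts. The replicate number, shared by 1 female and 1 male, was tried as a block. Alternatives are given in the closing section; those without Zswim6 female replicate 50 and without each Gsg1l library were chosen after seeing the data.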

Additional observations from a re-analysis of the deposited data

Results flagged for a closer look

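Among 117 groups of a member in a line (8 libraries each), 3 held a library whose gap to its nearest neighbour was a larger share of the group's range than Dixon's critical value, which chance exceeds in about 1 in 20 groups. Cux1 read 233.8 CPM in Pcdh20 male replicate 30, and the next highest of that line read 204.3. Rasgrf2 read 405.6 CPM in Zswim6 female replicate 50, above 329.7 in the next of its line, and Calb1 read 163.7 CPM in the same library, above 114.5.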

How the results depend on the processing

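The Otof line difference had an adjusted p of 0.338 with tissue scores as covariates, 0.12 on plate 1 only, 0.462 in females only and 0.516 in males only, and 0.0192 to 0.402 with a line or library of Tbc1d8 or Gsg1l left out; it was 0.0179 without the 3 libraries against their sex label and 0.013 without Zswim6 female replicate 50. The cause was not tested, though single-sex fits hold fewer samples. Otof in Tbc1d8 was 0.29 with tissue scores, 0.52 in females only and 0.48 in males only. The count of members that differ between lines went from 1 to 0 under those 4 settings, and was 0 to 1 with a line or library left out. The count in each line went from 1 to 2 with Ensembl counts, to 0 with tissue scores, females only or males only, and to 3 without Zswim6 female replicate 50. The sex count went from 1 to 2, Rspo1 being the second, under DESeq2, limma with either pseudocount, tissue scores, plate 1 only and without Zswim6 female replicate 50, and was 1 to 2 with a line left out. Calb1 stayed called for sex in all settings run, at 0.08 to 0.14. Members with an SD above the median gene went from 5 to 8 on log2(FPKM + 1), and list relations from 52 to 34 with residuals of line, sex and tissue scores, where 135 could be computed. Rspo1 and Calb1 went from r = 0.01 to -0.25 in those residuals.

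The replicate block left the sex count at 1, with Calb1 at 0.10 (adjusted p 0.00391), and changed no member's call. Same-numbered pairs had deviations correlated at -0.24 to 0.24 (median 0.02, 52 pairs), and 8 pairs exceeded 0.1. Of 52 females, 18 correlated best with the male of their own number. No strong pairing by number was seen, and these values cannot settle whether a weak one exists. Over all genes, the line test called 1511, and 905 with tissue scores, 1001 on plate 1 only, 152 in females only and 456 in males only. The sex by line test called 6, and 3 by DESeq2 and 1 by limma. The plate test called 38, and 131 by DESeq2, 21 without a filter and 7 with tissue scores. In Tbc1d8 1957 genes were called, and 1286 with tissue scores, 1099 on plate 1 only, 479 in females only and 681 in males only. Of the correlations, 1729 kept their side of the threshold and direction, 45 newly passed, 52 no longer passed and 1 reversed. Otof, at a median of 28.3 CPM, and Rspo1 have the fewest reads of the 9.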

Other observations

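Genes that ran against a member over all libraries were also found, and are given as values only. For Otof the lowest r were those of Vamp1 (-0.87), a synaptic vesicle protein, the potassium channel gene Kcna1 (-0.83) and Ctsb (-0.82), a lysosomal protease. For Rasgrf2 they were Pitpnc1 (-0.82), Kazn (-0.81) and Hs3st2 (-0.79), and for Calb1 the kainate receptor gene Grik3 (-0.78), Stac2 (-0.76) and the myelin regulator gene Myrf (-0.72). Lhx2 had Slc43a2 (-0.71) and the myelin gene Mobp (-0.67) among its 3 lowest. The lowest single gene was Kcnf1 for Rorb (-0.66), Oxr1 for Cux2 (-0.65), Ids for Rspo1 (-0.69), Bcl2 for Cux1 (-0.61) and the metallothionein gene Mt1 for Pou3f2 (-0.53). These genes were picked for their r, so no test is given.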
